A study of Mus musculus with 6 samples.

Results

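The calcium/calmodulin-dependent kinases and the phosphatase calcineurin were examined in the hippocampus of mice lacking Trpc4. The set named 10 genes, and 8 of them were measured among the 22180 genes tested: Camk2a, Camk2b, Camk2d, Camk2g, Camk4, Camkk2, Ppp3ca and Ppp3cb. Members were taken by name, where a probe set of the array was annotated to exactly 1 gene and that gene was in the set. For a gene with several such probe sets, the one with the highest mean over the 6 arrays was used. Camkk1 was not matched to a probe set in the annotation table used here. Ppp3r1 was named only on a probe set shared with Wdr92, so its value is given as that of the shared probe set and is not counted.

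All 6 samples came from the hippocampus of C57BL/6J-background males aged 56 postnatal days. The 3 control samples were Trpc4 wild type and the 3 others Trpc4 knockout, and each was hybridised to 1 Affymetrix array. Trpc4 encodes a cation channel that opens downstream of Gq-coupled receptors and admits calcium. The deleted part of Trpc4, the cells that lack it and the number of animals behind a sample are not stated in the labels, so p-values reflect sample-to-sample spread that could be technical. Values are log2 RMA signals, on which a step of 1 is a doubling, and differences are knockout minus wild type.

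Calcium that enters a neuron binds calmodulin, and calcium/calmodulin then activates both a branch of kinases and a phosphatase. CaMKII, built of subunits from 4 genes, is abundant at excitatory hippocampal synapses, where its activation is required for long-term potentiation. CaMKK activates CaMKIV, a largely nuclear kinase that phosphorylates the transcription factor CREB. Calcineurin, a dimer of a catalytic A subunit and a regulatory B subunit, opposes kinases at the synapse, takes part in long-term depression and dephosphorylates NFAT factors.

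The arrays were alike, with medians of 4.73 to 4.75 and Pearson's r of 0.985 to 0.988 between any pair across probe sets, which are not independent replicates. The Trpc4 signal was 8.06, 8.23 and 8.06 in wild-type replicates 1 to 3 and 7.39, 7.55 and 7.31 in knockout replicates 1 to 3. Every knockout sample lay below every wild-type sample, and the difference was -0.70 ± 0.09 (standard error). Its unadjusted limma p was 8.87e-05 and its adjusted p over all genes was 0.738. An exact two-sided permutation test gave 0.1, its lowest possible p with 3 arrays a genotype. All 17 measured markers of hippocampal pyramidal and granule cells had mean signals above the median of all probe sets (4.74), as did most markers of the other cell types checked, so this does not single out the tissue. The fewest were 3 of 7 for choroid plexus.

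The signals of the measured kinases and calcineurin subunits overlapped between the genotypes, and Camk2d was the only one of the 8 whose difference exceeded 0.11 in size. Of the 8 genes, 0 passed an adjusted p of 0.05 in limma, where 0% of all genes tested passed. At an unadjusted p under 0.05 there were also 0 of 8, where 5.75% of all genes tested passed. In 0 of 8 did the 2 genotypes separate without overlap, where 10.9% of all genes did. Means were higher in knockout for 4 of the 8, where 54.9% of all genes were higher. The median difference of the 8 was 0.0058, beside 0.01 for all genes, and their median size regardless of sign was 0.04, beside 0.08 for all genes. Leaving out single samples moved the median of the 8 between -0.04 and 0.03, and it was below 0 when wild-type replicate 2 or either of knockout replicates 1 and 2 was left out. With 3 arrays a genotype the 95% intervals reached between 0.17 and 0.29 to either side of the estimate, so smaller differences could not be resolved.

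**Figure D1:**
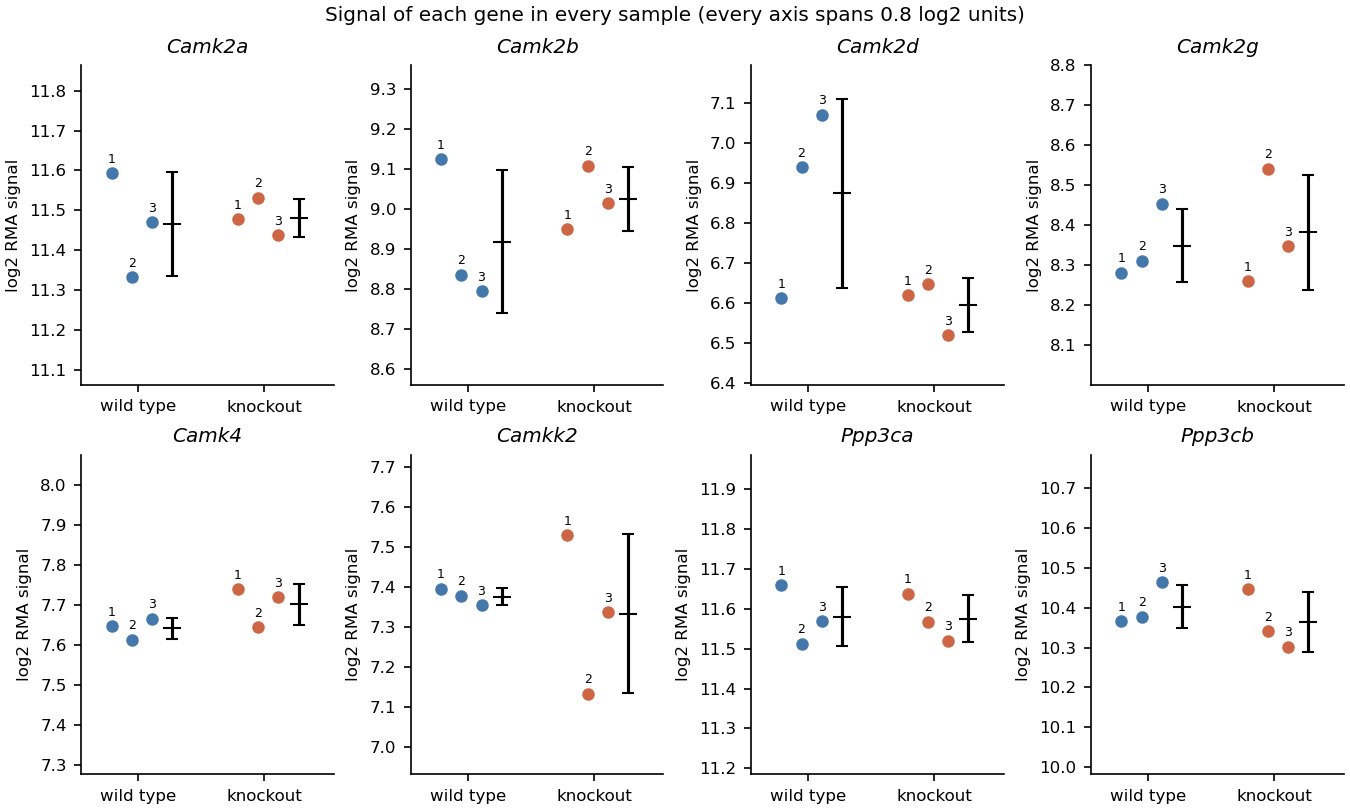
Log2 RMA signal (vertical axis) of the 8 measured genes in the 3 wild-type (blue) and 3 knockout (orange) samples, with points numbered by replicate and black bars for mean ± SD. Every vertical axis spans the same width, and for none of the 8 genes do the groups separate; for Camk2d, wild-type replicate 1 lies among the knockout samples.

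Camk2a encodes the alpha subunit of CaMKII, the main subunit of forebrain excitatory neurons. Its signal was 11.59, 11.33 and 11.47 in wild-type replicates 1 to 3 and 11.48, 11.53 and 11.44 in knockout replicates 1 to 3. The knockout values all lay inside the wild-type range. The difference was 0.02 ± 0.09, and the 95% interval of -0.19 to 0.22 placed the knockout signal between 87.7% and 116.7% of wild type.

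Camk2b encodes the beta subunit, which also binds actin filaments in dendritic spines. Wild-type replicates 1 to 3 gave 9.13, 8.84 and 8.80, and knockout replicates 1 to 3 gave 8.95, 9.11 and 9.02. Wild-type replicate 1 was the highest of the 6 samples, while the other wild-type samples were the lowest. The difference was 0.11 ± 0.11 with an interval of -0.14 to 0.35, with limma p 0.350 unadjusted and 0.931 adjusted. Without wild-type replicate 1 it was 0.21, at an unadjusted limma p of 0.0512, and without wild-type replicate 3 it was 0.04.

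Camk2g encodes the gamma subunit, which can carry calmodulin towards the nucleus. Its signal was 8.28, 8.31 and 8.45 in wild type and 8.26, 8.54 and 8.35 in knockout, for replicates 1 to 3. Knockout replicates 1 and 2 were the lowest and the highest of all samples. The difference was 0.03 ± 0.10, with an interval of -0.19 to 0.26.

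Camk2d encodes the delta subunit, which is found in many tissues and is the main form in heart. Wild-type replicates 1 to 3 gave 6.61, 6.94 and 7.07, and knockout replicates 1 to 3 gave 6.62, 6.65 and 6.52. The knockout samples lay close together, with an SD of 0.07, while the wild-type SD was 0.24. Wild-type replicates 2 and 3 were higher than every knockout sample, but wild-type replicate 1 was lower than knockout replicates 1 and 2, so the groups overlapped. Wild type averaged 6.87 ± 0.24 and knockout 6.60 ± 0.07 (SD, n = 3 each).

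The Camk2d difference was -0.28 ± 0.12, a knockout signal of 82.4% of wild type, with an interval of 67.6% to 100.5%. Its unadjusted limma p was 0.0545 and its adjusted p over all genes was 0.853. In size it was larger than the differences of 94.6% of all genes tested, and its pooled spread within genotypes was larger than that of 71.9% of them. The value rested on which wild-type samples were used. Without wild-type replicate 1 the difference was -0.41 (unadjusted limma p 0.00348), and the adjusted p was still at least 0.752. That sample was the only wild-type one within the knockout range, so without it the groups could not overlap, and the lower p is no separate support. With it left out, 23.7% of all genes were without overlap. Without wild-type replicate 3 the Camk2d difference was -0.18 (unadjusted limma p 0.177). The unadjusted p came below 0.05 under 4 of the other settings, as given in the closing section, and the adjusted p was at least 0.707 under all of them. In the reference gene order of assembly GRCm38.p6, Camk2d lies on chromosome 3, as does Trpc4, with 657 protein-coding genes between them.

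**Figure D2:**
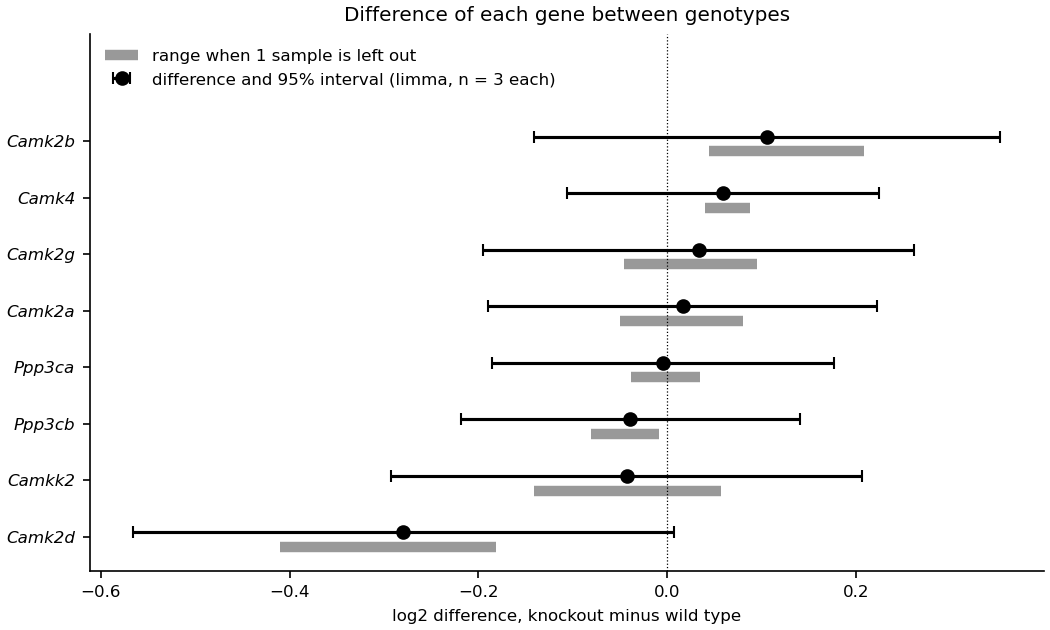
Log2 difference, knockout minus wild type (horizontal axis), of each measured gene, with black points and bars for the limma estimate and its 95% interval (n = 3 each) and grey bars for the range when single samples are left out. All 8 intervals include 0, that of Camk2d barely, and the grey bars of Camk2b, Camk2d, Camk4 and Ppp3cb stay on one side of 0.

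Whether Camk2d differed from its relatives was tested on the difference between 2 genes within each array, over 7 pairs of related genes. Signals of different probe sets cannot be set against each other, but this difference can be compared between genotypes. Camk2d relative to Camk2b was -2.51, -1.90 and -1.72 in wild-type replicates 1 to 3 and -2.33, -2.46 and -2.50 in knockout replicates 1 to 3. Wild-type replicate 1, which had the highest Camk2b signal and a low Camk2d signal, lay below all knockout samples. The shift between genotypes was -0.39 ± 0.24 for Camk2d relative to Camk2b, where the exact permutation test (two-sided, as for every pair) gave a p of 0.4. Relative to Camk2a it was -0.30 ± 0.20, with an exact permutation p of 0.4. Camk2g relative to Camk2d was 1.67, 1.37 and 1.38 in wild type and 1.64, 1.89 and 1.83 in knockout. This gave the largest shift against its error, 0.31 ± 0.12, with an exact permutation p of 0.2. Without wild-type replicate 1 the shift of Camk2d was -0.62 relative to Camk2b and -0.49 relative to Camk2a. Without wild-type replicate 3 it was -0.23 relative to Camk2b, and without wild-type replicate 2 or 3 it was -0.20 relative to Camk2a. Adjusted over the 7 pairs, the permutation p was 0.7 or 0.8 for each, and no pair of 3 against 3 could have gone below 0.1 before adjustment.

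Camk4 encodes CaMKIV. Its signal was 7.65, 7.61 and 7.67 in wild type and 7.74, 7.64 and 7.72 in knockout, for replicates 1 to 3. Knockout replicates 1 and 3 were above every wild-type sample, and knockout replicate 2 was within the wild-type range. Samples of 1 genotype differed little, so that only 3.66% of genes had a smaller pooled spread. The difference was 0.06 ± 0.07 with an interval of -0.11 to 0.22. A second Camk4 probe set was dimmer, at 4.63 ± 0.09 for wild type and 4.71 ± 0.10 for knockout (SD, n = 3 each), and its difference was 0.07 ± 0.09. On each probe set alone the groups overlapped. The mean of both gave 0.07, and on that mean the groups did not overlap, as for 10.9% of all genes under that setting.

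Camkk2 encodes a kinase that activates CaMKIV, CaMKI and the energy sensor AMPK. Its signal was 7.40, 7.38 and 7.35 in wild type and 7.53, 7.13 and 7.34 in knockout. Wild-type samples were nearly identical (SD 0.02), whereas knockout replicate 1 was the highest and knockout replicate 2 the lowest of the 6 (SD 0.20). The difference was -0.04 ± 0.11, and its sign turned, to 0.06, without knockout replicate 2. Without knockout replicate 1 it was -0.14, and the groups no longer overlapped, as for 20.4% of all genes with that sample left out.

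The catalytic subunits of calcineurin differed by less than their standard errors. Ppp3ca, which encodes the A alpha subunit that predominates in brain, gave 11.66, 11.51 and 11.57 in wild type and 11.64, 11.57 and 11.52 in knockout. The knockout samples lay inside the wild-type range, and the difference was -0.0048 ± 0.08. The interval placed the Ppp3ca signal of knockout between 87.9% and 113.0% of wild type. It also lies on chromosome 3, with 709 protein-coding genes between it and Trpc4.

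Ppp3cb, which encodes the A beta subunit, gave 10.37, 10.38 and 10.46 in wild type and 10.45, 10.34 and 10.30 in knockout. Knockout replicates 2 and 3 were the lowest samples, and knockout replicate 1 lay within the wild-type range. The difference was -0.04 ± 0.08, with an interval of 85.9% to 110.2% of the wild-type signal. Without knockout replicate 1 it was -0.08 and the groups no longer overlapped, as for 20.4% of all genes with that sample left out. Without wild-type replicate 3 the difference was -0.0081. Ppp3cb relative to Ppp3ca shifted by -0.03 ± 0.06, with an exact permutation p of 0.6. The probe set that names both Ppp3r1, which encodes the calcium-binding B subunit, and Wdr92 gave 9.99, 9.88 and 9.90 in wild type and 10.01, 9.89 and 9.91 in knockout. Its difference was 0.0099 ± 0.08, and the signals of the 2 genes cannot be told apart on it.

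Markers of other cell types are given beside Camk2d because bulk signals do not separate fewer cells of a type from less RNA per cell. All 17 measured genes of myelinating oligodendrocytes were lower in knockout, 13 at an unadjusted limma p under 0.05 and 0 at the adjusted threshold. Leaving out single samples, the 13 became 6 without wild-type replicate 1, 7 without wild-type replicate 3 or knockout replicate 1 or 2, 9 without wild-type replicate 2 and 15 without knockout replicate 3, and 1 gene was higher without knockout replicate 2. Tspan2 differed by -0.62 ± 0.15 and Aspa by -0.68 ± 0.18. The mean log2 signal of the list ran from 7.88 to 7.95 in wild type and from 7.23 to 7.82 in knockout. The myelin score, the mean log2 deviation from the 6-sample mean, was 0.22, 0.15 and 0.22 in wild-type replicates 1 to 3 and -0.19, -0.49 and 0.09 in knockout replicates 1 to 3.

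Of 14 interneuron markers, 11 were lower in knockout, with Dlx2 at -0.21 ± 0.09 and Dlx5 at -0.29 ± 0.13. The other 3 were higher, with Dlx6 at 0.13 ± 0.15. Of the 14, 1 was at an unadjusted limma p under 0.05. This became 0 with the replicate block and without wild-type replicate 2 or knockout replicate 1 or 2, and 2 without wild-type replicate 1. The list ran from 7.30 to 7.40 in wild type and from 7.25 to 7.28 in knockout. Of 17 pyramidal and granule cell markers, 13 were higher, and 6 were at an unadjusted limma p under 0.05, 4 higher and 2 lower. The 6 became 2 without wild-type replicate 3 or knockout replicate 1. Those of lowest p were Iyd at -0.36 ± 0.07 and Plk5 at 0.30 ± 0.09. That list ran from 7.34 to 7.45 in wild type and from 7.44 to 7.47 in knockout. In wild-type replicates 1 to 3 its scores were 0.03, -0.05 and -0.09, in the reverse order of their Camk2d signals. This order was not particular to that list. Microglia scores (0.050, 0.038 and 0.012) and astrocyte scores (0.016, -0.020 and -0.021) followed it too, while choroid plexus scores rose with Camk2d and the remaining lists did neither. Excitatory neuron markers ran from 8.52 to 8.65 in wild type and from 8.57 to 8.66 in knockout. Of 12 endothelial and mural cell markers, 9 were lower, with Abcb1a at -0.26 ± 0.09 and Acta2 at -0.24 ± 0.09. The other 3 were higher, with Tek at 0.13 ± 0.11, and the median difference was -0.05. Of these 12, 3 were at an unadjusted limma p under 0.05, which became 0 without wild-type replicate 2 or 3 and 1 without knockout replicate 2. Their mean signal ran from 6.37 to 6.45 in wild type and from 6.29 to 6.41 in knockout. Of 7 choroid plexus markers, 6 were lower, with Ttr at -0.43 ± 0.18 and Clic6 at -0.30 ± 0.15. Clic6 was dim, with means of 3.10 in wild type and 2.80 in knockout, below the median of all probe sets (4.74). Of the 7, only Ttr was at an unadjusted limma p under 0.05, and its groups overlapped. The count became 0 without wild-type replicate 3 or knockout replicate 1 or 2. By score, wild-type replicates 1 to 3 stood at 0.03, 0.05 and 0.15, and knockout replicates 1 to 3 at -0.23, -0.07 and 0.06. Without knockout replicate 1 the median difference of the choroid plexus list went from -0.16 to -0.014. Of 11 microglia markers, 7 were lower, with Mpeg1 at -0.58 ± 0.10 and Ctss at -0.29 ± 0.09. The other 4 were higher, with Aif1 at 0.24 ± 0.10, and the median difference was -0.02. Without wild-type replicate 1 or 2, 6 of the 11 were higher. The microglia list ran from 6.51 to 6.54 in wild type and from 6.39 to 6.50 in knockout. Astrocyte markers were higher for 6 of 12, and markers of striatum, thalamus and cortex for 6 of 11. The part of cell composition in the Camk2d values was not tested.

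**Figure D3:**
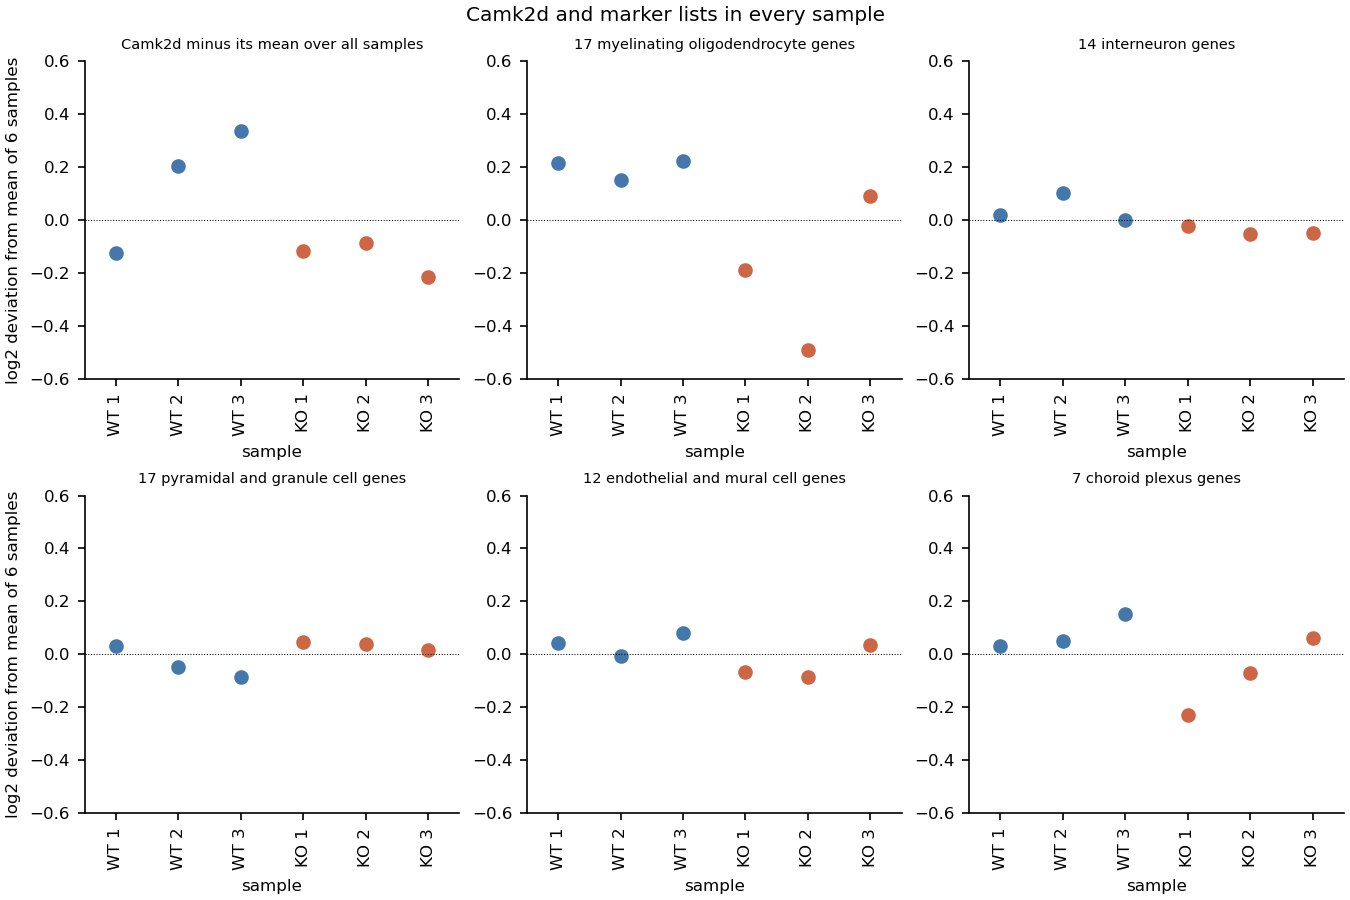
Log2 deviation from the mean of the 6 samples (vertical axis) of Camk2d and of the mean over 5 marker lists, for each wild-type (WT, blue) and knockout (KO, orange) sample. Camk2d is low in wild-type replicate 1 and in all knockout samples. The myelin list lies between 0.15 and 0.22 in wild type and between -0.49 and 0.09 in knockout.

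Other genes of the pathway were described from 5 lists, none of which had a gene past the adjusted threshold in limma. Among the 5 measured genes of the list of calmodulin-binding and related proteins, 4 were lower in knockout, with a median difference of -0.17, and 0 were at an unadjusted limma p under 0.05. The 0 became 2 without wild-type replicate 1 or with trend and robust variance. It became 1 under quantile normalization, when probe sets below the median were dropped, and without wild-type replicate 2 or knockout replicate 1. Pcp4, a small protein that speeds calcium exchange on calmodulin, gave 9.86, 9.84 and 10.08 in wild type and 9.74, 9.85 and 9.69 in knockout. Knockout replicates 1 and 3 were the lowest samples, and the difference was -0.17 ± 0.09, or -0.09 without wild-type replicate 3. Its relative Pcp4l1 differed by -0.20 ± 0.09, and the growth-cone protein gene Gap43 by -0.16 ± 0.09. Nrgn, which encodes neurogranin and holds calmodulin near the postsynaptic membrane, differed by 0.07 ± 0.09.

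Of 13 other CaM kinases, related kinases and CaMKII inhibitors, 10 were higher and 3 lower. The median difference was 0.04, and 0 were at an unadjusted limma p under 0.05. That count became 1 with trend and robust variance, when probe sets below the median were dropped, and without wild-type replicate 1. Eef2k, the calmodulin-dependent kinase of elongation factor eEF2, gave 6.33, 6.22 and 6.21 in wild type and 6.54, 6.41 and 6.36 in knockout. Its groups did not overlap, and the difference was 0.18 ± 0.08 with limma p 0.0574 unadjusted and 0.857 adjusted. Camk2n1 and Camk2n2, which encode inhibitors of CaMKII, differed by 0.02 ± 0.09 and 0.15 ± 0.15. Without wild-type replicate 1 Camk2n2 differed by 0.04, and without knockout replicate 3 by 0.29. Camk1, the cytosolic kinase activated by CaMKK, differed by 0.04 ± 0.08 and the scaffold gene Caskin1 by 0.12 ± 0.09. Caskin1 differed by 0.05 without knockout replicate 1. The sign turned for Camk1 without wild-type replicate 1 (-0.01) and for Camk2n1 without wild-type replicate 2 (-0.06).

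Of 9 other calcineurin subunits, inhibitors and anchors, 8 were lower and 2 were at an unadjusted limma p under 0.05, Chp1 and Cabin1. The 2 became 1 with the replicate block, with probe sets naming several genes added, or without wild-type replicate 2 or 3 or knockout replicate 1 or 2. The median difference was -0.05, and without knockout replicate 1 it was -0.0080 with 3 of 9 higher. It was -0.08 without wild-type replicate 1 or knockout replicate 2, and 3 of 9 were also higher without wild-type replicate 3, and 2 of 9 without wild-type replicate 2 or knockout replicate 3. Chp1, whose product resembles the calcineurin B subunit and can inhibit the phosphatase, had the largest difference of the list, -0.42 ± 0.10. It was 5.33, 5.41 and 5.31 in wild type and 5.12, 4.80 and 4.85 in knockout, without overlap, with limma p 0.00341 unadjusted and 0.849 adjusted. This was the dimmest of 3 probe sets that name Chp1. The other probe sets, which also name Gm20056, had wild-type means of 7.58 and 8.57 and differed by 0.07 ± 0.12 and 0.07 ± 0.09, so the probe sets disagree.

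Cabin1, an inhibitor of calcineurin, was the only gene of the calcineurin list that was higher. It gave 7.39, 7.18 and 7.29 in wild type and 7.58, 7.57 and 7.39 in knockout. Knockout replicate 3 exceeded wild-type replicate 1 by little, and the difference was 0.23 ± 0.09 with limma p 0.0396 unadjusted and 0.853 adjusted. The feedback inhibitor Rcan1, itself a transcriptional target of the calcineurin and NFAT pathway, differed by -0.01 ± 0.10, and Rcan2 by -0.12 ± 0.08. Ppp3cc, the third catalytic subunit gene, differed by -0.05 ± 0.08. Leaving out single samples moved Rcan1 between -0.07 and 0.07 (the latter without wild-type replicate 3). For Ppp3cc the lowest value was -0.11, with knockout replicate 2 left out, and the highest -0.0080, with knockout replicate 1 left out.

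Of 16 targets and partners of the kinases, 13 were higher, with a median of 0.07 and 1 at an unadjusted limma p under 0.05. The 1 became 0 with the replicate block, quantile normalization, median centring or array weights, or without wild-type replicate 1 or 3 or knockout replicate 1 or 2, and 3 with trend and robust variance. That gene was Crtc1, a CREB coactivator that enters the nucleus when calcineurin dephosphorylates it. The Crtc genes stand in this list as partners of CREB, although calcineurin acts on their products. Crtc1, Crtc2 and Crtc3 are among the 13 higher genes, so the counts of this list and of the calcineurin targets depend on that placement. Crtc1 gave 9.44, 9.58 and 9.51 in wild type and 9.74, 9.66 and 9.66 in knockout, and the groups did not overlap. The difference was 0.18 ± 0.08, with limma p 0.0486 unadjusted and 0.853 adjusted. Crtc3 and the CaM kinase-regulated deacetylase gene Hdac5 both differed by 0.16, with standard errors of 0.09 and 0.08, and Creb1 by -0.03 ± 0.07. By sample, the mean deviation of the list was -0.01, -0.04 and -0.07 in wild type and 0.06, 0.06 and -0.02 in knockout.

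Of 15 genes listed as targets of calcineurin or partners of such targets, 4 were higher, among them the coactivator gene Crebbp (0.09 ± 0.07), and 11 lower. Without knockout replicate 1, 7 were higher. The median difference was -0.01, and without single samples it ran from -0.05 (without knockout replicate 3) to -0.01 (without knockout replicate 1). Of the 15, 0 were at an unadjusted limma p under 0.05. That count became 1 with trend and robust variance and when probe sets below the median were dropped. It was also 1 without wild-type replicate 3 or knockout replicate 2 or 3. Nfatc3, an NFAT factor of neurons, gave 6.50, 6.49 and 6.52 in wild type and 6.31, 6.21 and 6.47 in knockout. The groups did not overlap, and the difference was -0.18 ± 0.09 with limma p 0.0776 unadjusted and 0.861 adjusted. Tfeb, a lysosomal transcription factor with a signal near the array medians, differed by -0.18 ± 0.08, and the phosphatase inhibitor gene Ppp1r1a by 0.19 ± 0.09.

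**Figure D4:**
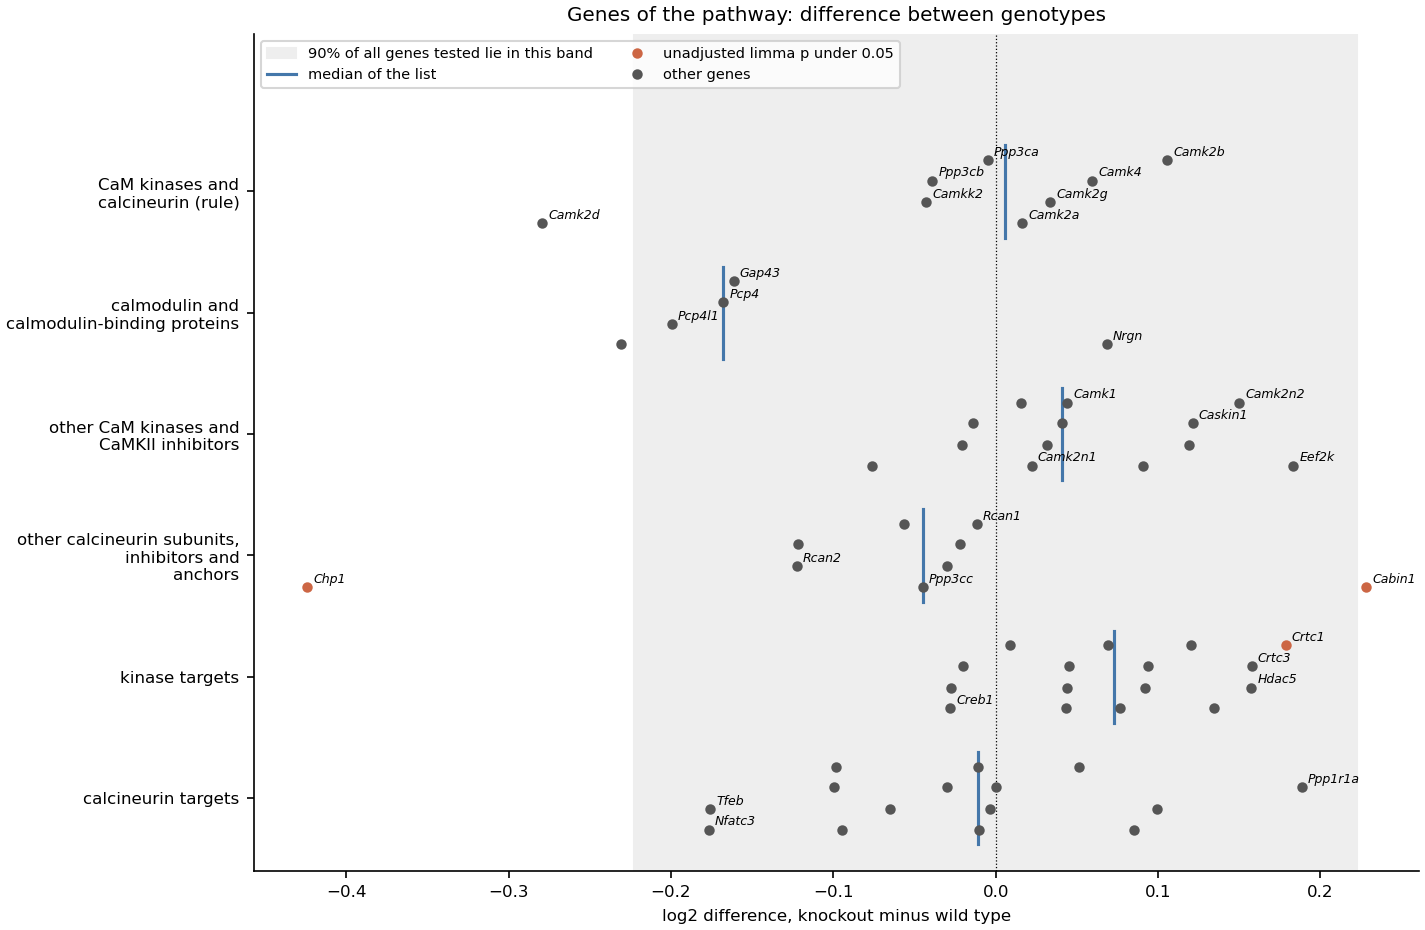
Log2 difference, knockout minus wild type (horizontal axis), of every measured gene of the set and of 5 pathway lists (rows), with orange for an unadjusted limma p under 0.05, blue lines for list medians and a grey band that holds 90% of all genes tested. Camk2d is the only gene of the set outside the band, and Chp1, Cabin1 and Crtc1 are the only orange points.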

How the data were processed

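The submitters' processing notes name Affymetrix Power Tools and RMA for the log2 signals that the authors deposited. Tool versions and the build: not given in the sources used here. RMA equalises arrays, so a shift shared by most genes would not be seen. No scans were used, and the number of arrays limits the precision. Of 41345 probe sets, 23521 named 1 gene in the platform annotation, 1814 several and 16010 none. Of the 22180 genes tested, 21994 matched RefSeq (GRCm38.p6) by gene number.

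Genotypes were compared with limma 3.58.1 in R 4.3.3, genotype being the sole term, and adjusted over all genes by Benjamini-Hochberg, and pairs of genes by exact permutation. Errors after ± are standard errors from the limma fit (for pairs, of the 2 means) unless marked SD. Members and lists were chosen with earlier results of these data known. Named genes were the members, Trpc4, the 3 of lowest unadjusted p in each pathway list, and well-known partners fixed by name. Where marker genes were named, they were the 2 of lowest unadjusted p in their list, besides Dlx6, Aif1 and Tek, named as genes that were higher. The planned pair of Camkk2 with Camkk1 could not be formed.

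In simulated data on 22180 genes, limma called 18 of 50 genes shifted by 0.5 (log2) and 41 of 50 shifted by 1. The simulation held 200 shifted genes, 50 at each of 0.5, 1, 2 and 3, which eases the adjusted threshold. In the measured data 0 genes passed, so these call rates do not carry over to them. Replicate numbers are shared between genotypes, but nothing in the labels pairs the samples. Alternatives covered normalization, centring, a replicate block, weights, variance prior, dim probe sets, the choice of probe set and single samples left out. Figures were drawn with matplotlib 3.10.9.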

Additional observations from a re-analysis of the deposited data

How the results depend on the processing

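Of 112 values of the members under 14 alternatives each, 0 passed the adjusted threshold and 8 turned sign, all of them small. With quantile normalization the difference of Ppp3ca was 0.0099, and the shift of Camk2g relative to Camk2a was -0.011. Leaving out single samples moved Camk2a between -0.050 and 0.080, Camk2g between -0.046 and 0.095, Camkk2 between -0.14 and 0.057 and Ppp3ca between -0.039 and 0.035. Camk2b, Camk2d, Camk4 and Ppp3cb kept their sign under every alternative run. Among the pairs, leaving out single samples moved Camk2g relative to Camk2a between -0.081 and 0.076, Camk2g relative to Camk2b between -0.21 and 0.042, and Ppp3cb relative to Ppp3ca between -0.092 and 0.0026. The count of 0 members at an unadjusted p under 0.05 became 1, Camk2d each time, with median centring, array weights, trend and robust variance, or only probe sets above the median, and it was 1 at a threshold of 0.1. It ran from 0 to 1 without single samples. The count of 0 members without overlap became 1, Camk4, with the mean of all probe sets of a gene, where 10.9% of all genes were without overlap. It ran from 0 to 2 without single samples. With 1 sample fewer, 19.3% to 23.7% of all genes were without overlap.

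Over all genes, 0 passed the adjusted threshold. Trend and robust variance gave 1, Trpc4 at -0.70 (adjusted p 0.0378), and the count was 0 to 1 without single samples. The 1 arose without knockout replicate 1 and was not Trpc4, whose adjusted limma p there was 0.884. With the replicate number as a block, Camk2d differed by -0.28 at an unadjusted limma p of 0.0668, and 0 genes passed. Same-numbered samples did not deviate together, with correlations of 0.067, 0.035 and -0.004 over genes. Small differences in these genes are beyond what 3 arrays a genotype resolve.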
